A study of Mus musculus with 6 samples.

Results

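5-formylcytosine (5fC) is made when TET enzymes oxidise 5-hydroxymethylcytosine (5hmC), and the subject here is the set of CG dyads at which 5fC was listed and 5hmC was not. A CG dyad is a CG on one strand with the CG opposite it on the other, so that it holds a cytosine on each strand. A dyad was taken when either of its cytosines was in the deposited 5fC list and neither was in the deposited 5hmC list, on chromosomes 1 to 19. The rule found 274868 dyads of 3858031 with 5fC, or 7.12% (95% Wilson interval 7.10 to 7.15%), and these are called 5fC-only dyads. The share depended on the rule: it was 14.3% when only 5hmC on the same strand as the 5fC removed a dyad, 11.5% when only 5hmC cytosines with at least 5 reads did so, and 4.21% when any listed 5hmC cytosine within 10 bases did so. The other 3583163, with 5hmC on at least 1 strand, are called shared dyads. The 5hmC list held 11135596 dyads on the same chromosomes.

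The cells were E14, an established line of mouse embryonic stem cells, grown on gelatin with serum and LIF. In Pvu-Seal-seq, PvuRts1I cuts the DNA beside modified cytosines, and fragments tagged by glucosylation and biotin are captured and sequenced. The labels give 2 technical replicates of 5fC at passage 14, 2 of 5hmC at passage 14 and 2 of 5hmC from a second biological replicate at passage 12, with no treatment and no altered allele. For each mark, every listed cytosine has a single read count, without separate values for the libraries. On chromosomes 1 to 19 they came to 101416586 reads at 6186387 cytosines for 5fC and 260905804 reads at 20434856 cytosines for 5hmC, each cytosine with at least 2 reads. No value has a replicate error, dyads of 1 genome are not replicates, and no test between the groups was run. Intervals cover counting error over dyads only.

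In stem cells the TET enzymes oxidise 5-methylcytosine stepwise, and the repair glycosylase TDG removes 5fC so that an unmodified cytosine can be put back. 5hmC is a comparatively stable mark of gene bodies and enhancers, whereas 5fC is scarce and builds up where TDG is missing. PvuRts1I cuts to the 3′ side of a modified cytosine, and its site has a cytosine on each strand, set a short distance apart and facing each other across the cut. Absence from the 5hmC list does not show that a dyad lacked 5hmC, since the rule behind the lists was not given in the sources used here. The labels describe the library steps for 5hmC alone, so what set 5fC reads apart from 5hmC reads is unknown here.

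The letters around some of these dyads can be shown. Promoter sequences from RefSeq (build GRCm38.p6) were placed on the mm9 lists by their letters alone, at the position where every listed cytosine fell on a cytosine of the right dinucleotide. Of 31396 promoters 4496 were placed at 1 position, and for 4398 of them (97.8%) the shift from the table was that of a neighbouring placed promoter. These 4398, of 3934 genes, were used. They held 16045 5fC dyads, of which 1410 were 5fC-only (8.79%, interval 8.36 to 9.24%). Placing needed at least 10 listed cytosines, so promoters with few listed sites are missing.

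The next 2 promoters lie in a window that is among those with the most 5fC-only dyads, and the 2 after them hold the most such dyads among the placed promoters that were ranked. Promoters on chromosomes 8 and 18 were left out of this ranking and of all sequences shown, so they may hold as many. Each runs 5′ to 3′ along the gene, from 250 bases before its start to 50 bases after it, with 5fC-only dyads in capitals.
Hoxd12: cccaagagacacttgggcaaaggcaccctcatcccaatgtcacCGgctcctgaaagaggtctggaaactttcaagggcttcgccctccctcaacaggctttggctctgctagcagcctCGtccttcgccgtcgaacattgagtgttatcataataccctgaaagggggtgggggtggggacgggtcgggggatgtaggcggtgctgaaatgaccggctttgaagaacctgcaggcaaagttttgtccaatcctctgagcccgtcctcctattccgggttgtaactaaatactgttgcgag
Hoxd9: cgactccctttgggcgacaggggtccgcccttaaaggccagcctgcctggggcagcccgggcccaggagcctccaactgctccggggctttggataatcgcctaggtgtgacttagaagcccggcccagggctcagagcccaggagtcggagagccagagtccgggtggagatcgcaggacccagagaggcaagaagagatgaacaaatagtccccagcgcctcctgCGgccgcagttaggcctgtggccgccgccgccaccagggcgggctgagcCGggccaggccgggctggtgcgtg
Mcoln2: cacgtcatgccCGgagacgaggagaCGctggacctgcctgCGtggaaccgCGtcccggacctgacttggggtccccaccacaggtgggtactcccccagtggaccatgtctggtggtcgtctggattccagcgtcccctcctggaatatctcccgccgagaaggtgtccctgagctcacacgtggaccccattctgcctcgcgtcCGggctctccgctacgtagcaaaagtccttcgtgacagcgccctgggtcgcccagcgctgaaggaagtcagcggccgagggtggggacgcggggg
Atf7ip: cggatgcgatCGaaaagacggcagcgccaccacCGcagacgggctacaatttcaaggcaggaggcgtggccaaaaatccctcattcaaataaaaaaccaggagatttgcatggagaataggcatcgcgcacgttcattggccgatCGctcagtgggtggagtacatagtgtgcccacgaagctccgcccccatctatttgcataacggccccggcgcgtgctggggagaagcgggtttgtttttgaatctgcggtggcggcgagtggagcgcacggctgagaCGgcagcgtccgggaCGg
In mm9 their positions were chr2:74512820-74513119 for Hoxd12, chr2:74535570-74535869 for Hoxd9, chr3:145812888-145813187 for Mcoln2 and chr6:136467122-136467421 for Atf7ip, all on the plus strand.

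Mcoln2, which encodes the ion channel TRPML2, had 5fC at 6 of 26 promoter dyads, and 5 of these were 5fC-only. They had 8, 6, 8, 4 and 4 5fC reads, each on 1 strand, and 2 of the 5 had a facing 5hmC cytosine, which here means one listed on the other strand 21 to 24 bases downstream of the 5fC. The only shared dyad of this promoter had 28 5fC reads and 23 5hmC reads. The promoter of Atf7ip, which encodes a partner of the histone methyltransferase SETDB1, had 16 5fC dyads of 29, and the 5 that were 5fC-only had 2, 9, 24, 7 and 16 reads. They lay among shared dyads, at promoter positions 11, 34, 146, 283 and 298. Of these, 3 had a facing 5hmC cytosine listed. At position 142, 4 bases from the deepest of them, a shared dyad had 14 5fC and 13 5hmC reads. In Hoxd12 the 5fC-only dyads had 6 and 3 reads and in Hoxd9 they had 12 and 6. In Atf7ip, and in Hoxd12 at positions 119 and 126, 5fC-only and shared dyads thus lay a few bases apart. In Hoxd9 the only shared dyad was at position 148 and the nearest 5fC-only dyad at 228. In Mcoln2 these were at 220 and 206.

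5fC-only dyads had fewer 5fC reads than shared dyads. The median was 10 reads (quartiles 6 and 15) in 5fC-only dyads, against 15 (quartiles 9 and 27) in shared dyads. The most frequent number was 6 in 5fC-only and 8 in shared dyads, and the highest was 171 in 5fC-only and 377792 in shared dyads. With 3234436 reads, 5fC-only dyads held 4.04% of the 5fC reads at CG. The 5fC count is part of how a dyad enters its list, so these values describe the groups.

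**Figure D1:**
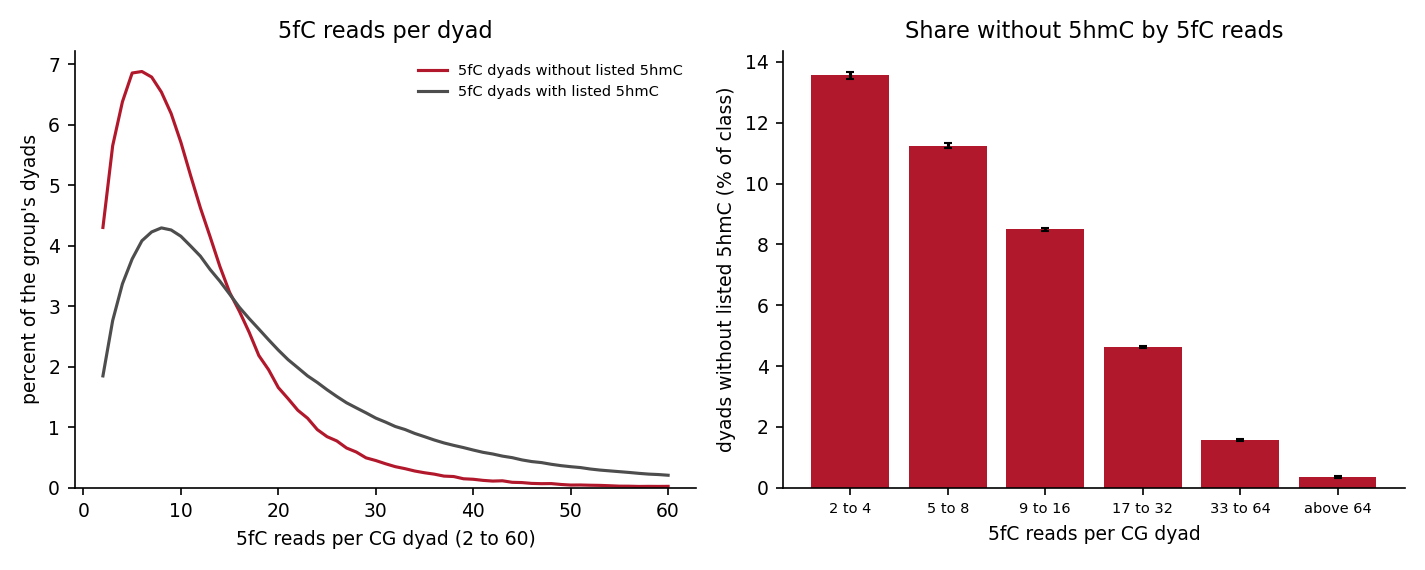
Left, percent of dyads of each group (y) by 5fC reads per dyad (x, 2 to 60 shown). Right, percent of 5fC dyads without listed 5hmC (y) by class of 5fC reads (x), with 95% Wilson intervals; it falls from 13.6% at 2 to 4 reads to 0.352% above 64 reads.

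The share of 5fC-only dyads fell steadily with 5fC reads. It was 13.6% (interval 13.4 to 13.7%) at 2 to 4 reads, 11.2% at 5 to 8, 8.49% at 9 to 16, 4.62% at 17 to 32, 1.58% at 33 to 64 and 0.352% (0.322 to 0.385%) above 64. Of the 5fC-only dyads 16.3% had 2 to 4 5fC reads, the fewest that the rule lets in, against 7.98% of shared dyads. Just outside the rule, 150758 shared dyads had 2 to 4 5hmC reads, and their median of 10 5fC reads was that of the 5fC-only dyads.

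Most 5fC-only dyads had 5fC on a single strand, 128488 on the plus and 126685 on the minus strand. Both strands were listed in 7.17% of 5fC-only dyads (interval 7.07 to 7.26%), against 21.5% of shared dyads. With shared dyads weighted to the 5fC reads of the 5fC-only dyads, 9.23% of them were on both strands. In each class of 5fC reads the share was lower in 5fC-only dyads, for example 20.0% in 5fC-only against 27.9% in shared dyads at 17 to 32 reads. The 19695 5fC-only dyads on both strands had a median of 23 reads, 15 on the stronger and 7 on the weaker strand.

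The 5 deepest 5fC-only dyads, given by the position of their plus-strand cytosine in mm9, had 142 to 171 5fC reads. The deepest, at 5545520 on chromosome 10, had 171 reads, all on the plus strand. The next, at 139166399 on chromosome 7, had 42 plus and 124 minus reads. It was followed by 95255933 on chromosome 3, with 131 plus and 17 minus reads, and by 4011114 on chromosome 7, with 27 and 118. The fifth, at 20904066 on chromosome 16, had 13 and 129. The second to the fourth were also the deepest 3 on both strands. Each of the 5 had a listed 5hmC cytosine of some dinucleotide nearby, at 9, 10, 16, 5 and 58 bases. Between 3 and 32 5hmC dyads lay within 1 kb of them.

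5fC-only dyads mostly had 5hmC close by. The nearest 5hmC dyad was a median of 26 bases away for 5fC-only dyads (quartiles 10 and 64) and 26 for shared dyads (quartiles 12 and 60). Within 1 kb a 5fC-only dyad had a median of 17 5hmC dyads, against 18 for a shared dyad. A 5hmC dyad lay within 100 bases of 84.2% of 5fC-only dyads (interval 84.0 to 84.3%) and of 86.0% of shared dyads. The order depended on 5fC reads, with 81.8% of 5fC-only against 83.9% of shared dyads at 2 to 4 reads, 87.6% against 87.2% at 17 to 32, 93.0% against 88.7% at 33 to 64 and 95.2% against 86.2% above 64, 5fC-only dyads first. Only 0.451% of 5fC-only and 0.168% of shared dyads had none within 1 kb. Of the 5fC-only dyads 41.0% had a listed 5hmC cytosine of any dinucleotide within 10 bases. No such share is given for shared dyads, so this value compares nothing between the groups.

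5fC neighbours showed the same turn. Another 5fC dyad lay within 100 bases of 62.0% of 5fC-only and 66.1% of shared dyads, and of 61.7% of shared dyads weighted to the same 5fC reads. This matched value averages opposite differences. At 9 to 16 reads 61.0% of 5fC-only and 61.7% of shared dyads had such a neighbour, at 17 to 32 reads 71.5% of 5fC-only and 69.8% of shared dyads, at 33 to 64 reads 86.5% of 5fC-only and 78.2% of shared dyads, and above 64 reads 92.3% of 5fC-only and 80.1% of shared dyads.

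The groups differed at a fixed distance. Because PvuRts1I sites join facing cytosines, listed cytosines were counted on the other strand, downstream of the listed 5fC cytosine along its own strand, for dyads with 5fC on 1 strand. Shared dyads had a sharp peak of listed 5hmC cytosines 21 to 24 bases away. At 22 bases 1.89% of 5fC-only dyads had a listed 5hmC cytosine there, against 13.7% of shared dyads, and at 23 bases 1.94% of 5fC-only against 11.7% of shared dyads. One base outside the peak, at 25 bases, the values were 1.35% in 5fC-only and 1.48% in shared dyads. 5fC-only dyads had a much smaller peak at the same place, with 1.41% at 21 and 2.06% at 24 bases, against 1.23% at 20 and 1.35% at 25 bases. Upstream their values were higher in places, with 2.57% on the other strand at 10 bases, against 1.69% in shared dyads. Shared dyads had another peak on the same strand, with 6.53% at 21 bases upstream, against 1.79% in 5fC-only dyads. Per 100 1-strand dyads, 3.77 non-CG 5hmC cytosines faced 5fC-only dyads at 21 to 24 bases and 1.89 at 31 to 34, against 27.4 and 1.38 for shared dyads. CG 5hmC cytosines came to 3.52 and 3.68 for 5fC-only dyads, against 10.6 and 3.79 for shared dyads.

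**Figure D2:**
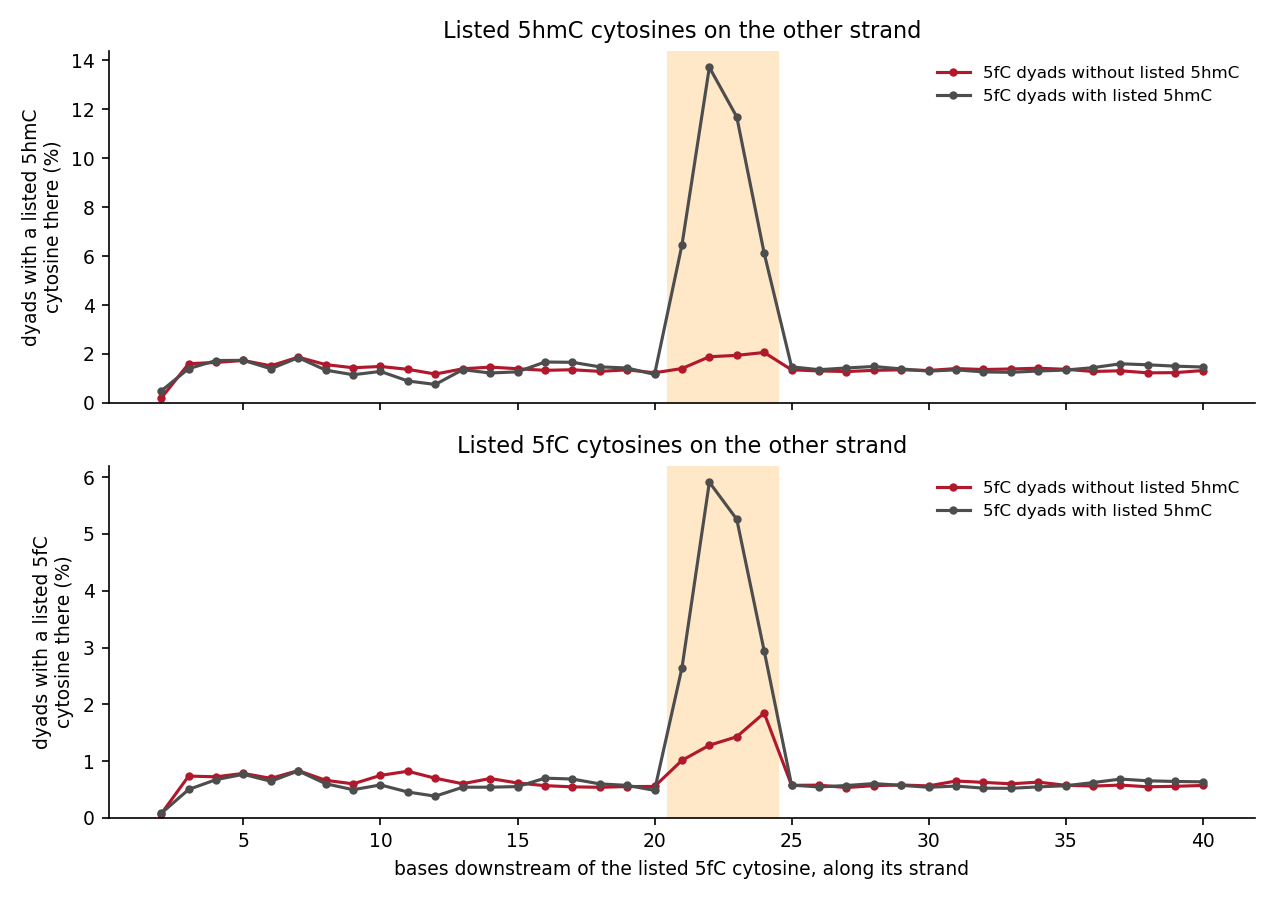
Percent of 1-strand 5fC dyads (y) with a listed 5hmC cytosine (top) or 5fC cytosine (bottom) on the other strand at each distance downstream of the 5fC cytosine (x, 2 to 40 bases). The shaded distances of 21 to 24 bases hold at most 2.06% for 5hmC in 5fC-only dyads and a peak of up to 13.7% in shared dyads.

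Over all dyads, a 5hmC cytosine faced a listed 5fC cytosine at 21 to 24 bases in 7.76% of 5fC-only dyads (interval 7.66 to 7.86%) and in 42.5% of shared dyads (42.4 to 42.6%). At the comparison distance of 31 to 34 bases the shares were 6.26% in 5fC-only and 6.66% in shared dyads. At the 5fC reads of the 5fC-only dyads, 35.0% of shared dyads had a facing 5hmC cytosine, so most of the gap was also there at matched reads. The gap was present in each class of 5fC reads, from 7.18% in 5fC-only against 27.2% in shared dyads at 2 to 4 reads, to 15.8% against 73.0% above 64 reads. Counted without regard to strand and side, a listed 5hmC cytosine 20 to 23 bases away was found for 19.8% of 5fC-only and 52.7% of shared dyads. At 30 to 33 bases the shares were 19.2% in 5fC-only and 18.9% in shared dyads. Whether reads from the 2 sides of a cut are counted at both cytosines is not known, so the listing of a facing cytosine may not be independent of the rule.

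The same distance stood out in the 5fC list, through which the dyads of both groups entered. What set 5fC reads apart from 5hmC reads is unknown here, so the 2 lists may not be independent. A facing 5fC cytosine was listed for 6.71% of 5fC-only dyads (interval 6.61 to 6.80%) and 22.7% of shared dyads, or 16.2% of shared dyads at matched 5fC reads. At 31 to 34 bases it was 3.07% in 5fC-only and 3.26% in shared dyads. Here too 5fC-only dyads had a small peak, with 1.85% at 24 bases against 0.573% at 25 bases. Most facing 5fC cytosines lay outside CG. Per 100 1-strand dyads, 3.88 non-CG and 1.68 CG 5fC cytosines faced 5fC-only dyads, against 10.8 non-CG and 5.91 CG for shared dyads. At 31 to 34 bases CG partners of 5fC-only dyads came to 1.72 per 100, so that no excess of CG partners was seen for them at 21 to 24 bases.

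**Figure D3:**
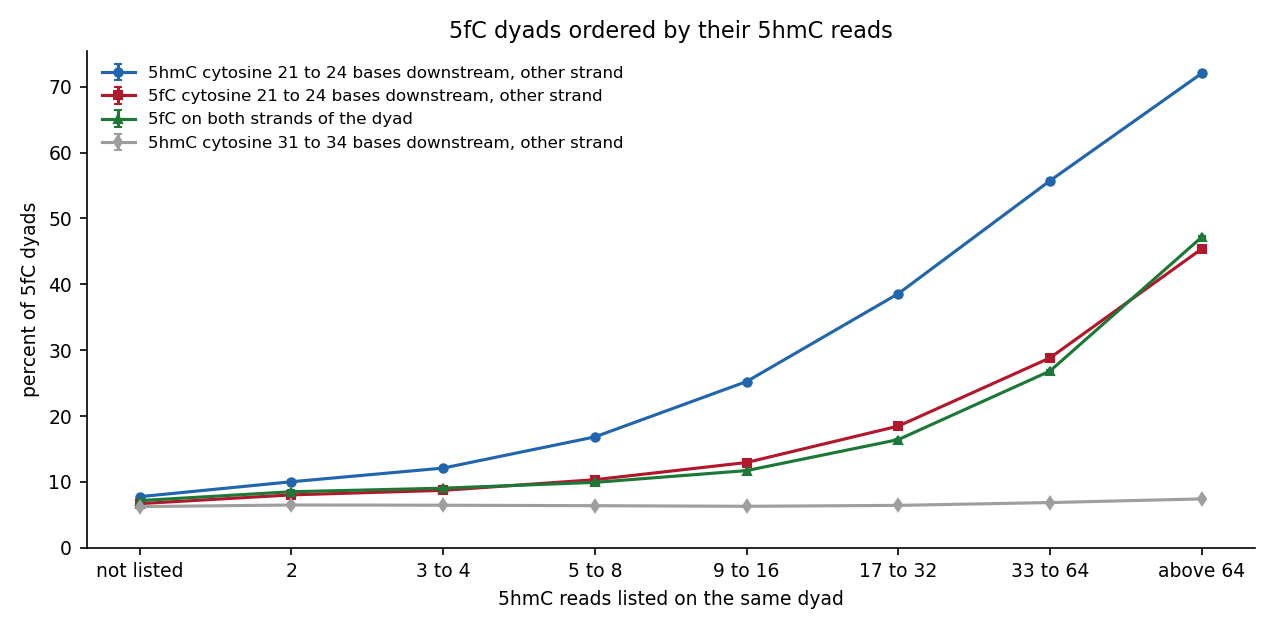
Percent of 5fC dyads (y) with each feature, by the 5hmC reads listed on the same dyad (x; the leftmost class is the 5fC-only dyads), with 95% Wilson intervals. Facing 5hmC rises from 7.76% with none listed to 72.0% above 64 reads, while the 5hmC share at 31 to 34 bases stays between 6.26% and 7.43%.

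5fC-only dyads formed the low end of a graded series, with no break. A facing 5hmC cytosine was listed for 7.76% of 5fC-only dyads, 10.0% of dyads with 2 5hmC reads, 12.1% with 3 to 4, 16.8% with 5 to 8, 25.2% with 9 to 16, 38.6% with 17 to 32, 55.7% with 33 to 64 and 72.0% above 64. Facing 5fC went from 6.71% in 5fC-only dyads through 8.04% at 2 5hmC reads to 45.4% above 64, and 5fC on both strands from 7.17% through 8.52% to 47.2%. Median 5fC reads were 10 in each class up to 8 5hmC reads and 35 above 64. The number of 5hmC dyads within 1 kb hardly moved, with medians of 17 to 18 in all classes. Since the classes are cut on the list that the rule used, this is a description.

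Whether a facing cytosine existed at all was read in the placed promoters, from the reference letters. A cytosine on the other strand is a guanine on the strand of the 5fC. Placing made every listed cytosine match these letters, so each listed facing cytosine has its guanine here. The comparison is thus not independent of the lists. Of 1165 1-strand 5fC-only dyads with enough sequence, 63.2% had a guanine 21 to 24 bases downstream (interval 60.4 to 65.9%), against 79.5% of 9809 shared dyads (78.7 to 80.3%). At 31 to 34 bases the shares were 68.5% in 5fC-only (65.8 to 71.2%) and 69.4% in shared dyads (68.5 to 70.4%). At 22 bases alone, a guanine was present in 23.2% of 5fC-only against 35.7% of shared dyads. These intervals cover counting error over dyads only, and both distances were chosen after the values were seen.

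**Figure D4:**
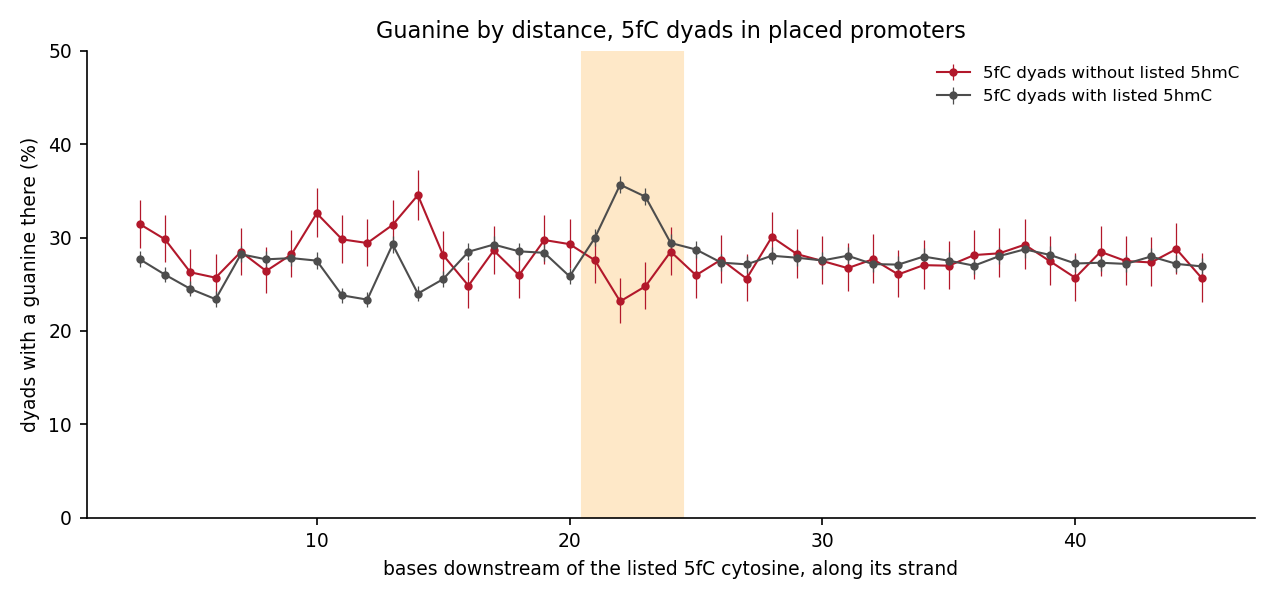
Percent of 1-strand 5fC dyads in placed promoters with a guanine (y) at each distance downstream of the listed 5fC cytosine (x, bases), with 95% Wilson intervals. At 22 bases 5fC-only dyads lie at 23.2% and shared dyads at 35.7%, whereas from 26 bases on the groups lie close together.

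The difference grew with 5fC reads. A guanine at 21 to 24 bases was found for 68.7% of 5fC-only (interval 64.9 to 72.3%) and 76.7% of shared dyads at 2 to 8 reads, for 59.1% and 79.0% at 9 to 16 reads, and for 52.9% (45.5 to 60.3%) and 82.6% (81.3 to 83.8%) above 16 reads, with 5fC-only dyads first in each pair. Base composition also differed, and its part in the guanine difference was not tested. The 26 bases on each side had a median of 59.6% G and C around 5fC-only and 53.8% around shared dyads. In stretches of up to 50% G and C, 49.4% of 5fC-only and 72.7% of shared dyads had the guanine, and above 60% it was 76.3% of 5fC-only and 86.5% of shared dyads. Nearer to the 5fC, guanine was more frequent in 5fC-only dyads at some distances, so 21 to 24 bases was not the only place of difference. The widest such gap was at 14 bases, with 34.5% in 5fC-only dyads (interval 31.9 to 37.3%). The interval in shared dyads there was 23.2 to 24.8%. At 11 bases it was 29.8% in 5fC-only against 23.8% in shared dyads. The order was reversed at 16 bases, with 24.9% in 5fC-only against 28.5% in shared dyads. These values rest on promoters alone.

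The deepest 1-strand dyads of the placed promoters outside chromosomes 8 and 18 show the sequences behind these counts. Each stretch starts at the listed 5fC cytosine and runs 25 bases downstream, with the CG and any guanine at 21 to 24 bases in capitals, counting from 0 at the 5fC. The 5fC-only dyads were these.
Atxn7l1: CGcatatgttgacagccagaaccac
Gm40359: CGcagagccattagcatttgtcctG
4930452N14Rik: CGaaacgatttcagacttgccaatc
Gm40689: CGccacatcagctgtttttctGaat
Helz2: CGtctaagtatgagtagggggaGGG
The shared dyads were these.
Gm51891: CGacacttaagatataacctgcGGG
Gm33149: CGgtgtcacaatagccaatcacGtG
Gm35281: CGagggaaaaggtcatggggtGaaa
Sohlh1: CGtgaagcagggagtcaaacacGaG
Gm38482: CGattccaacaccccgatgcctGaa

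The 5fC-only stretches had 58, 52, 41, 40 and 39 5fC reads in the order shown. In mm9 they lay at chr12:34000215-34000239 on the plus strand, chr6:30965053-30965077 on the minus strand, chr1:156104000-156104024 on the plus strand, chr10:70293424-70293448 on the minus strand and chr2:180976923-180976947 on the minus strand. Those at Atxn7l1 and 4930452N14Rik had no guanine at the facing distance, and the others had 1, 1 and 3. No facing cytosine was listed for either mark at any of the 5. The 5 shared stretches had 163, 152, 148, 147 and 117 5fC reads and 155, 167, 74, 77 and 113 5hmC reads. They lay at chr11:44344771-44344795 on the minus strand, chr15:96992944-96992968 and chr14:30601525-30601549 on the plus strand, chr2:25702934-25702958 on the minus strand and chr11:115900072-115900096 on the plus strand. Each had 1 to 3 guanines at the facing distance, and a facing cytosine was listed for both marks at all 5. The dyads were picked by 5fC reads and are examples only.

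Along the list of 5fC dyads, 83.2% of the 5fC-only dyads stood alone and 14.0% were in pairs. At an overall share of 7.12%, most would also stand alone if they were spread independently along the list, so this value alone does not describe clustering. Runs of 3 or more were rare, and the longest, 7 dyads, occurred 6 times. The shortest of these 6 ran over 308 bases at chr15:78993889-78994196, with 2 to 13 5fC reads per dyad and 10 5hmC-listed dyads in between. Another covered 417 bases at chr12:66137280-66137696, with 2 to 20 reads per dyad and 9 5hmC dyads in between. The run with the fewest, 2 5hmC dyads over 1102 bases, was at chr6:87680476-87681577. These 3 were picked from the 6 after their values were seen.

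A 5fC-only dyad was followed by another more often than a shared dyad was, and the ratio was highest at the facing distance. When the next 5fC dyad lay 20 to 23 bases on, which puts its minus cytosine opposite the plus cytosine at 21 to 24 bases, it was 5fC-only in 12.2% of cases after a 5fC-only dyad (interval 11.3 to 13.2%) and in 2.36% after a shared dyad. That is a 5.19-fold ratio, which came mainly from the low value after shared dyads. Both values rest on the 5hmC list that set the groups. Facing cytosines may also not be listed independently of each other, so the ratio is a description. At 2 to 10 bases the shares were 10.0% after a 5fC-only and 7.98% after a shared dyad. At 11 to 19 bases the shares were 10.3% after a 5fC-only and 7.34% after a shared dyad, and at 24 to 50 bases 7.85% and 6.64% in the same order. In the 4 classes from 51 to 5000 bases the ratio lay between 1.15 and 1.27. Beyond 5000 bases the shares were 13.1% after a 5fC-only and 12.3% after a shared dyad. Pairs of 5fC dyads 20 to 23 bases apart that began with a 5fC-only dyad numbered 4303, of 166265.

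By chromosome the share of 5fC-only dyads was even, with 2 exceptions. It was 5.78% (interval 5.70 to 5.87%) on chromosome 8 and 5.77% (5.69 to 5.85%) on chromosome 11, and between 7.20% and 7.58% on the other 17 autosomes. Per Mb chromosome 11 still had the most 5fC-only dyads, 158, and chromosome 8 had 125, against 87.1 to 138 on the others. A 5hmC dyad had a median of 18 5hmC reads on chromosome 8 and 19 on chromosome 11, and 12 to 14 on the other autosomes. The part of 5hmC read number in the lower share was not tested. The facing difference was present on every chromosome, with 6.76% to 8.30% of 5fC-only and 39.4% to 47.0% of shared dyads over all 19.

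**Figure D5:**
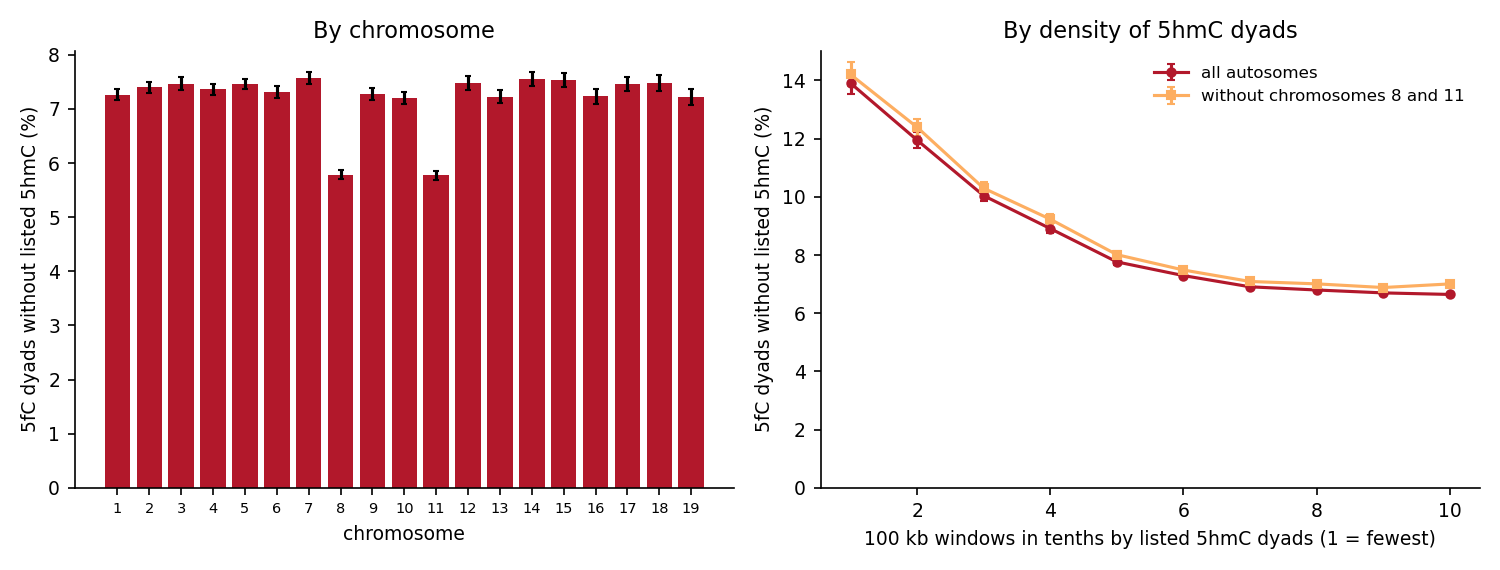
Percent of 5fC dyads without listed 5hmC (y) by chromosome (left) and by decile of 100 kb windows ranked on listed 5hmC dyads (right), with 95% Wilson intervals. Chromosomes 8 and 11 lie at 5.78% and 5.77%, and the share falls from 13.9% in the decile with the fewest 5hmC dyads to 6.64% in that with the most.

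Where listed dyads of either mark were sparse, a larger share of 5fC dyads was 5fC-only. Over 23840 windows of 100 kb the share was 13.9% (interval 13.5 to 14.3%) in the decile with the fewest 5hmC dyads and 6.64% (6.60 to 6.69%) in the decile with the most. Leaving out chromosomes 8 and 11 gave 14.2% and 7.01% in the same order. Median 5hmC reads per 5hmC dyad went from 7 to 18 along the same deciles, and their part was not tested. Ranked on 5fC dyads instead, the share was 14.7% in the decile with the fewest and 6.58% in that with the most, or 15.1% and 6.95% without chromosomes 8 and 11. The first ranking uses the 5hmC list, which bears on the rule, and neighbouring windows are not independent. By number, the decile of windows richest in 5fC-only dyads held 30.1% of them, and the decile richest in 5fC dyads held 30.2% of those and 76825 5fC-only dyads.

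The 3 windows with the most 5fC-only dyads all held promoters of Hox genes, the homeobox transcription factors that set position along the body axis and are largely silent under Polycomb in embryonic stem cells. Chromosome 11 from 96100001 to 96200000 had 121 5fC-only dyads of 819 with 5fC, or 14.8% (interval 12.5 to 17.4%), and the placed promoter in it was that of Hoxb8. Chromosome 6 from 52100001 to 52200000 had 108 of 653, or 16.5% (13.9 to 19.6%), with the promoters of Hoxa3 and Hoxa7. Chromosome 2 from 74500001 to 74600000 had 92 of 582, or 15.8%, with Hoxd9 and Hoxd12. The median share over the 12446 windows with at least 100 5fC dyads was 6.75%, and the 95th percentile was 10.5%. The windows were picked for their number of 5fC-only dyads, which bears on their share, and no test of Hox genes as a group was made.

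These windows were dense in both marks. They held 1328, 1268 and 1142 5hmC dyads in the order given, and a median of 32, 28.5 and 30 5hmC dyads lay within 1 kb of their 5fC-only dyads, against 17 over all 5fC-only dyads. Median 5hmC reads per 5hmC dyad were 13, 10 and 10. The 5fC-only dyads in them had a median of 9, 9 and 10 5fC reads. The placed promoters themselves had between 1 and 8 5fC dyads each, with 5fC at 8 of 13 CG dyads at Hoxb8 and also at Hoxd12. The 5fC-only dyads were 0 of 8 5fC dyads at Hoxb8, 0 of 1 at Hoxa3, 0 of 1 at Hoxa7, 2 of 8 at Hoxd12 and 2 of 3 at Hoxd9. The window ranked 4 in number, chromosome 15 from 76000001 to 76100000, had 85 of 755 (11.3%) and no placed promoter. The window ranked 5 was chromosome 15 from 102800001 to 102900000, with 73 of 558 (13.1%, interval 10.5 to 16.1%) and 3 placed promoters. Their 5fC-only dyads were 0 of 3 5fC dyads at Hoxc4, 1 of 5 at Gm29905 and 1 of 10 at Gm30528. Both of these windows fall outside the naming rule and were added after their values were seen.

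By share, the highest window was chromosome 19 from 61300001 to 61400000, with 39 of 147 5fC dyads, or 26.5% (interval 20.1 to 34.2%). The last listed base of chromosome 19 fell inside this window. It is thus a shorter stretch at the end of the chromosome, not a full 100 kb. It held the promoter of Csf2ra, a receptor subunit for the cytokine GM-CSF, where 2 of 9 5fC dyads were 5fC-only. The 5fC-only dyads of this window had a median of 71 5hmC dyads within 1 kb, against 17 over all 5fC-only dyads. Next were chromosome 12 from 9500001 to 9600000 with 27 of 134 (20.1%) and chromosome 10 from 78200001 to 78300000 with 22 of 119 (18.5%). The lowest shares were 1 of 138 on chromosome 5 from 102800001 to 102900000, 1 of 135 on chromosome 11 from 7300001 to 7400000 and 1 of 133 on chromosome 3 from 58500001 to 58600000. These windows were chosen for their shares.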

How the data were processed

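The submitters' processing notes name CASAVA, bcl2fastq, cutadapt and Bowtie and build mm9, without versions. The authors deposited 1 table for each mark, holding unscaled read counts of listed cytosines without separate columns for the libraries. The 5hmC table is named in the labels of both cultures and was treated as that of passage 14. The listing rule was not given in the sources used here. These counts allow no test over libraries, so no p-value is given. Shares have 95% Wilson intervals.

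From these counts CG dyads, strands, distances, 100 kb windows and runs were counted in Python 3.11.15 with numpy 2.4.6, pandas 2.3.3 and scipy 1.17.1. Coordinates are 1-based. The counting was tested on simulated data with 200000 dyads and passed 6 of 6 checks. Promoters were placed with numba 0.67.0 where every listed cytosine matched and the product of chance matches was at most 1e-12. No mm9 genome was used here.

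Dyads and windows were named by a fixed rule: the 5 members with the most 5fC reads, the 3 deepest on both strands, the 3 windows with the most members, the 3 highest and 3 lowest shares among windows with at least 100 5fC dyads, and the 3 longest runs. Genes were to be named only with an mm9 annotation. They are named from placed promoters, which was added after the values were seen, as were the facing distances of 21 to 24 bases, the comparison at 31 to 34 bases and the weighting by reads. The members and lists were chosen with earlier results of these data known. Alternatives changed the reads needed, the chromosomes, the deepest cytosines, the 5hmC listing that removes a dyad and the window size.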

Additional observations from a re-analysis of the deposited data

Results flagged for a closer look

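Chromosomes X and Y lie outside the rule and are listed because they hold 5fC dyads without listed 5hmC in numbers above the limit of 3 that a 0 count permits, which is a low bar. Chromosome X, present once in male cells, had 5860 such dyads of 42474 with 5fC, or 13.8% (interval 13.5 to 14.1%), and chromosome Y had 66 of 437, or 15.1% (12.1 to 18.8%). The share was 7.12% over the autosomes. Median 5fC reads on X were 9 in dyads without and 12 in dyads with 5hmC. A 5hmC dyad had a median of 7 5hmC reads on X and 6 on Y. The part of 5hmC read number, or of chromosome copy number, in the higher shares was not tested.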

How the results depend on the processing

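No paired analysis was possible because each table holds 1 pooled read number per site. Leaving out each library, size factors and the replicate block were not run for the same reason. Limits of at least 5 and at least 10 5fC reads per cytosine were run as filters on low counts. Over the alternatives the direction between 5fC-only and shared dyads was kept for each compared share over all read classes and for median reads, while the median of 5hmC dyads within 1 kb was 17 in both groups without chromosomes 8 and 11. Leaving out cytosines above 1000 reads kept each value within its interval. With intervals this narrow, small moves are listed too, and their cause was not tested beyond what each setting removes.

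With at least 5 5fC reads per cytosine, 5fC-only dyads made up 6.52% of 5fC dyads, had a median of 11 reads and were on both strands in 6.44%. A 5hmC dyad lay within 100 bases in 84.6% and a 5fC dyad in 60.8%, facing 5fC was 6.09%, and the richest decile of windows held 30.4%. With at least 10 reads, 135532 were left, 5.13% of 5fC dyads, with a median of 15 reads and 4.74% on both strands. Neighbours within 100 bases were 85.7% for 5hmC and 57.1% for 5fC, 5hmC 20 to 23 bases away 20.5%, facing 5hmC 7.87%, facing 5fC 4.58%, the richest decile 31.8% and facing guanine 56.0% of 5fC-only against 81.1% of shared dyads.

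Without chromosomes 8 and 11 the share was 7.38%, both strands 6.90%, 5hmC within 100 bases 83.8%, 5fC within 100 bases 61.0%, 5hmC 20 to 23 bases away 19.4%, facing 5fC 6.47% and the richest decile 30.3%. When only 5hmC on the same strand as the 5fC removed a dyad, 552359 were left, or 14.3%. Both strands were then 3.57%, 5hmC within 100 bases 85.7%, 5fC 63.5%, 5hmC 20 to 23 bases away 28.9%, facing 5hmC 7.43%, facing 5fC 6.55% and the richest decile 29.6%. When only 5hmC cytosines with at least 5 reads did so, 444138 were left, or 11.5%, with 7.97% on both strands, 84.4% and 62.3% near 5hmC and 5fC, 21.6% with 5hmC 20 to 23 bases away, 9.39% facing 5hmC, 7.50% facing 5fC and 29.6% in the richest decile.

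When any 5hmC cytosine within 10 bases removed a dyad, 162307 were left, or 4.21%, with a median of 9 reads, 15 5hmC dyads within 1 kb and 5.14% on both strands. Here 74.4% had a 5hmC and 48.5% a 5fC dyad within 100 bases, 15.9% had 5hmC 20 to 23 bases away, 6.21% faced 5hmC and 5.03% faced 5fC, and the richest decile held 27.3%. These falls follow in part from the setting, which removes dyads with close neighbours. With 10 kb windows the richest decile held 40.1%.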
